A study of Mus musculus with 19 samples.

Results

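The comparison set 3 libraries of blastoids on day 3 of culture against 3 libraries on day 1, all genes taken, which is 6 of the 19 libraries of the series and 6 of its 15 blastoid libraries. The question was how the transcriptome moved over the early phase of blastoid culture. The libraries were chosen by the day in their labels, and no measured value entered the choice. Of 54352 gene symbols in the count table, 15121 had enough counts to be tested. Blastoids are aggregates of stem cells that come to resemble the blastocyst. These were grown in 3D microwells from TT2, a line of mouse embryonic stem cells that is cultured on feeders, embryonic fibroblasts stopped from dividing. All blastoid libraries carry the same treatment label, pladienolide B (PlaB) at 20 nM for 6 h, so both days share it and the comparison holds no untreated blastoid. PlaB binds the SF3B complex, the part of the spliceosome that recognises the branch site. Each library is an aggregate bulk sample, so fewer cells of a type and less RNA per cell cannot be told apart in any value below. All cells come from 1 line. The labels do not say that replicates were grown separately, so the spread behind each p-value may be technical.

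In the blastocyst, the outer trophectoderm is a polarised epithelium that expresses keratins and claudins and pumps fluid into the cavity. The inner cells split into primitive endoderm and epiblast. The epiblast leaves naive pluripotency through a formative state, in which Otx2 and FGF signalling take part, before it can respond to gastrulation cues.

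The day 1 libraries held 3684787 to 6816649 counts and the day 3 libraries 4231669 to 6859777. Levels are given as CPM (counts scaled to a common library size), with edgeR's TMM factors applied. Fold changes are log2 values of day 3 over day 1 with a standard error. That error was derived from the test, as the absolute fold change over the square root of its F statistic. Adjusted p-values are those of edgeR's quasi-likelihood test across the tested genes, called below 0.05. Replicate 3 of day 3 stood apart. Mitochondrially encoded genes took 13.5% of its counts (95% Wilson interval 13.46 to 13.52, counting error only) against 5.50% and 4.71% in the other day 3 libraries, and 2.61%, 2.81% and 4.92% in the day 1 libraries. Cytosolic ribosomal protein genes took 6.58% of its counts against 12% and 11.3%. Its log2 levels correlated at 0.915 and 0.94 across genes with those of the other day 3 libraries, which correlated at 0.977 with each other. Results that this library or the GC content of genes decides are given with and without it.

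GC content moved with the day. Each gene's log2 level was taken relative to its own mean over the 15 blastoid libraries. On this scale the median of genes with over 53.4% GC (the upper quartile) was set against that of genes with under 43.9% (the lower quartile). The difference was 1.06, 1.17 and 0.453 in the day 1 libraries and -0.591, -0.714 and -1.41 in the day 3 libraries, so the groups did not overlap. It compares libraries and does not say which genes were more abundant within a library. Across tested genes the fold change had a Spearman correlation of -0.55 with GC content, which is a description, since genes are not replicates. Genes under 42% GC had a median fold change of 0.883 and those of at least 54% GC of -1.24. The part of RNA quality, amplification or biology in this trend was not tested. Every count below was therefore repeated after a trend with GC content was removed from each library, and is called GC-adjusted. After that step the correlation was -0.0446.

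**Figure D1:**
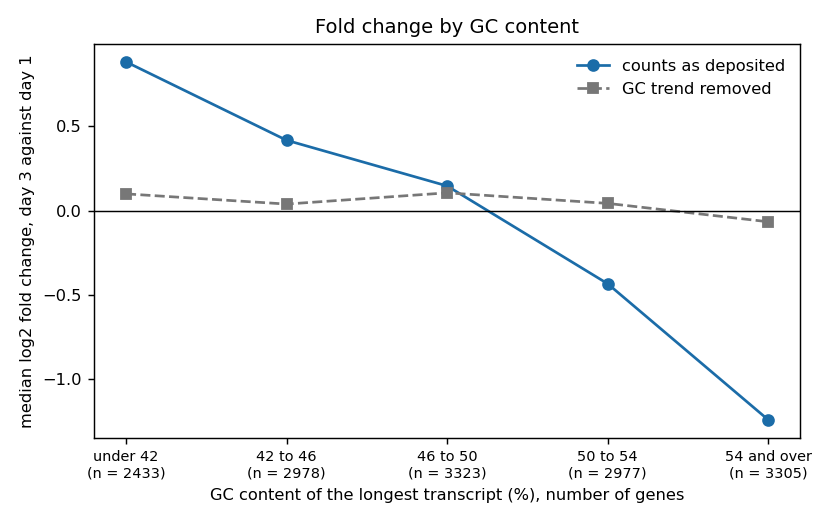
Median log2 fold change of day 3 against day 1 (vertical axis) for tested genes in 5 classes of GC content of the longest transcript (horizontal axis), from the counts as deposited (circles) and after the GC trend was removed (squares). The median falls from 0.883 in the class under 42% GC to -1.24 in the class of at least 54%, and lies between -0.0655 and 0.106 after adjustment.

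Between day 1 and day 3, 3545 genes rose (23.4% of those tested) and 3600 fell (23.8%), of which 2416 rose and 2965 fell by at least 2-fold. The libraries of both days did not overlap in 3928 genes that were higher on day 3 (26%) and in 3990 that were lower (26.4%). GC-adjusted, 3011 of 15016 genes rose (20.1%) and 2621 fell (17.5%). Each list count below is to be read against these shares of all tested genes, without or with GC adjustment. The direction and the call held after adjustment for 4265 genes, 59.7% of the calls, and 15 were called in the opposite direction. Scaled by total counts alone, which moved the median of all genes from 0.03 to -0.228, the split was 2424 higher and 4555 lower, so that 34.7% of calls were rises against 49.6%. In 64.4% of the genes that rose, the day 3 mean was the highest of the 5 days, against 24% of all tested genes. In 62.9% of the genes that fell, it was the lowest, against 23.3%. The day 2 mean lay between those of days 1 and 3 in 89.1% of the risen and 88.7% of the fallen genes, against 62.1% of all tested genes. Day 3 libraries serve in each of these shares, so they describe the time course and are not a separate test.

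The largest changes are given among genes with a mean of at least 10 CPM on the higher day that passed with and without GC adjustment and whose libraries did not overlap between the days. The rises included transcription factors of the early neural plate and epiblast. Zic5, a zinc finger factor (chromosome 14, 122456795 to 122465677; coordinates throughout on GRCm38), stood at 8.99, 4.48 and 7.34 CPM in the day 1 libraries and at 63.2, 78.3 and 168 CPM in the day 3 libraries, a fold change of 3.86 ± 0.38 (adjusted p = 3.37e-07). Sox11, a SoxC factor, went from 8.62, 9.20 and 7.61 to 69, 89.7 and 152 CPM (3.61 ± 0.28, adjusted p = 2.88e-08). In both, replicate 3 of day 3 was the highest library. Hnrnpa0, which encodes an RNA-binding protein of the hnRNP family, rose by 3.31 ± 0.37, the heparan sulfate sulfotransferase gene Hs6st2 by 3.44 ± 0.51 and the zinc finger gene Sp4 by 3.19 ± 0.38. The non-classical MHC class I gene H2-T23 (3.51), Ikzf5 (3.69), Clca4a (3.32), Nhs (3.19), Armcx4 (3.18), Igip (3.17) and the noncoding RNA Platr5 (3.14) complete the 12 largest within these limits. Ikzf5 overlaps other annotated genes, so its counts are uncertain. Without replicate 3 of day 3 the rises of Hs6st2, Ikzf5, Nhs and Igip were 2.76, 2.94, 2.40 and 2.46. The rise of Ikzf5 was 3.01 without replicate 1 and 5.06 without replicate 2 of day 1, and that of H2-T23 was 4.51 without replicate 3 of day 1.

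Within the same limits, the largest fall was that of Cyba, the membrane subunit of the NADPH oxidase (chromosome 8, 122424776 to 122432930), from 67.4, 112 and 66.6 to 1.53, 1.06 and 1.16 CPM (-6.01 ± 0.44, adjusted p = 1.9e-08). Ube2m, the NEDD8-conjugating enzyme, went from 72.7, 98.8 and 50.7 to 1.53, 1.81 and 0.233 CPM (-5.83 ± 0.41). The ligand gene Nrtn had 220 counts over the day 1 libraries and 3 over the day 3 libraries, a scaled level on day 1 that was higher 63.3-fold (95% counting interval 21.4 to 309). Sfn, the epithelial 14-3-3 sigma protein and a p53 target, fell by 4.86 ± 0.37, and Phlda3, a p53-induced inhibitor of Akt, fell by 5.31 ± 0.45. The others of the 12 were Sbf1 (-5.57), Igfbp6 (-5.37), Lce1g (-5.02), Map1lc3a (-4.89), the trophoblast factor Hand1 (-4.89), the triglyceride lipase gene Pnpla2 (-4.82) and the mesenchymal homeobox gene Prrx2 (-4.75). Single libraries moved the size of some falls. Without replicate 1 of day 3 the fold change was -6.51 for Lce1g, -6.79 for Pnpla2, -6.02 for Igfbp6 and -4.30 for Hand1. Without replicate 2 of day 3 it was -6.74 for Hand1 and -5.46 for Prrx2, and for Hand1 it was -4.05 without replicate 2 of day 1.

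Keratins of simple epithelia were not at a flat low level ahead of a later rise: they fell to a minimum on day 3. Krt18 (chromosome 15, 102028180 to 102032027) stood at 272, 277 and 197 CPM on day 1 and 21.4, 30.5 and 24.4 CPM on day 3 (-3.29 ± 0.31, adjusted p = 2.75e-07), with a mean of 90.3 ± 32.3 CPM on day 2 and 909 ± 366 CPM on day 5 (SD, n = 3). Krt8 (chromosome 15, 101996698 to 102004482), its partner in the filament, went from 99.5, 112 and 56.6 to 8.31, 12.7 and 11.4 CPM (-3.04 ± 0.33, adjusted p = 8.58e-07). Day 1 and day 3 libraries were far apart in both, and each gene fell after GC adjustment too (Krt18 -2.15, Krt8 -1.79). Krt7 (-3.31 ± 0.44) and Krt19 (-3.84 ± 0.47) fell likewise. Of 5 tested keratins, 4 fell and none rose, against 23.8% and 23.4% of all tested genes, with the same counts GC-adjusted. In 4 of the 5 the lowest mean was on day 3, against 23.3% of all tested genes and 62.9% of the genes that fell. From day 3 to day 5 Krt8 then rose by 5.02 and Krt18 by 5.16 on the log2 scale, and these values share the day 3 libraries with the fall. Krt8 overlaps Gm36026 and Krt7 overlaps Gm671 in the annotation, and no strand setting is known for the counting, so their counts are less certain than that of Krt18.

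**Figure D2:**
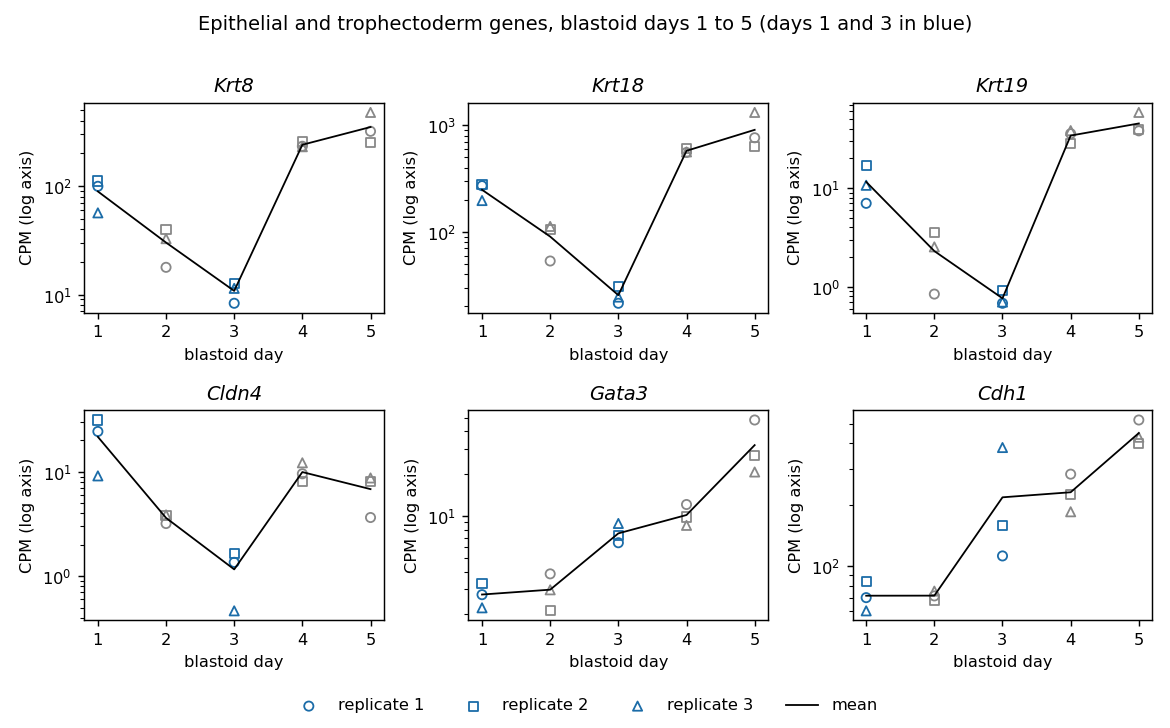
CPM (log axis) of 6 epithelial and trophectoderm genes in each of the 15 blastoid libraries by day of culture, with a symbol per replicate, days 1 and 3 in blue, and a line through the daily means. Krt8, Krt18, Krt19 and Cldn4 have their lowest values on day 3, while Gata3 and Cdh1 are higher on day 3 than on day 1.

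Trophectoderm surface and effector genes fell as a list, keratins among them: 15 of 22 tested members fell and none rose (23.8% and 23.4% of all genes), with a median of -2.35 against 0.03 over all tested genes. GC-adjusted, 14 fell and 1 rose, with a median of -1.51. Lgals3, the galectin of the early trophectoderm, went from 364, 182 and 235 to 12.9, 16 and 9.31 CPM (-4.34 ± 0.28, adjusted p = 6.23e-09). The days were far apart. The annexin gene Anxa2 fell by 3.30 ± 0.26 and the prostaglandin synthase gene Ptges fell by 3.36 ± 0.38. Plac1, a placental gene on chromosome X, had 9.12, 6.13 and 19.7 CPM on day 1 and 2.20, 3.02 and 3.02 CPM on day 3 (-2.10 ± 0.40), ahead of a mean of 186 ± 70.6 CPM on day 5. Of the 22, 15 had their lowest mean on day 3, against 23.3% of all tested genes and 62.9% of the genes that fell. From day 3 to day 5, 17 rose (19.2% of all tested genes rose in that comparison, which shares the day 3 libraries, and 17.8% fell).

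Transcription factors of the trophectoderm did not move together. Of 18 tested, 9 fell (50%, against 23.8% of all tested genes) and 3 rose (16.7%, against 23.4%). GC-adjusted, 6 fell and 5 rose. A single one rose without replicate 1 of day 1 or without replicate 3 of day 3. Gata3, which acts early in trophectoderm specification, was at 2.75, 3.30 and 2.21 CPM on day 1 and 6.44, 7.26 and 8.84 CPM on day 3 (1.46 ± 0.36, adjusted p = 0.00239), with every day 3 library above day 1, and it stood at 32 ± 14.5 CPM on day 5. Tfap2a also rose (1.45 ± 0.49), but no longer passed without replicate 1 (1.21) or 3 (1.39) of day 1 or replicate 3 of day 3 (1.00). Its relative Tfap2c, at 13.7, 15.8 and 14.9 CPM and 10.5, 17.1 and 24.9 CPM, did not pass the threshold (0.23 ± 0.29, adjusted p = 0.53) and passed it upwards after GC adjustment. Against these, the BMP-responsive factor Msx2 fell from 26.1, 40.6 and 19.7 to 2.88, 4.23 and 3.26 CPM (-3.03 ± 0.32), Id2 from 238, 277 and 304 to 87.5, 84.1 and 66.1 CPM (-1.78 ± 0.20) and Gata2 fell by 2.07 ± 0.30, which GC adjustment took to -0.76 (adjusted p = 0.0931). Tead4, upstream of Cdx2, was at 9.24, 8.96 and 6.92 CPM against 5.26, 6.20 and 6.05 CPM (adjusted p = 0.267), and Cdx2 itself, with 16 counts over the day 1 libraries and 5 over the day 3 libraries, was too low to test, as was Elf5 with 8 and 1.

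Among genes of cell contacts, claudins parted from cadherin and occludin. Cldn4 went from 24.4, 31.4 and 9.14 to 1.36, 1.66 and 0.465 CPM (-4.11 ± 0.49, adjusted p = 2.37e-06), Cldn3 fell by 4.75 ± 0.55 (-5.64 without replicate 1 of day 3), Cldn6 fell by 1.64 ± 0.33 and Cldn7 fell by 1.83 ± 0.34, of which the last no longer passed after GC adjustment. Ocln, another strand protein of the tight junction, rose from 3.12, 1.65 and 4.15 to 7.80, 10.7 and 17 CPM (1.92 ± 0.33, adjusted p = 0.000113). The scaffold gene Tjp1 rose by 1.03 ± 0.28. Cdh1, E-cadherin (chromosome 8, 106603351 to 106670246), stood at 70.1, 84.4 and 60.3 CPM on day 1 and 112, 159 and 382 CPM on day 3 (1.60 ± 0.32, adjusted p = 0.000454). Replicate 3 of day 3 lies far above the others there, yet all day 3 libraries exceed all day 1 libraries, and without it the rise was 0.93. Of 14 tight junction genes, 7 fell (50%) and 2 rose (14.3%), against 23.8% and 23.4% of all tested genes. GC-adjusted, 4 fell and 4 rose. Of 13 desmosome and adherens genes, 6 rose (46.2%) and 5 fell (38.5%), and 6 rose and 1 fell GC-adjusted. The rises were 3 without replicate 3 of day 3, 2 without replicate 1 of day 1 and 3 without replicate 2 of day 1, which left 3 falls. The water channel gene Aqp3 (-3.37 ± 0.41), used in filling the cavity, fell with and without adjustment.

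Several genes of the formative epiblast rose. Otx2, the homeobox factor that accompanies exit from the naive state (chromosome 14, 48657677 to 48673819), stood at 5.12, 4.01 and 3.18 CPM on day 1 and 18.8, 21.5 and 25.8 CPM on day 3 (2.41 ± 0.35, adjusted p = 2.34e-05). Lef1, a nuclear effector of Wnt signalling, rose from 3.25, 6.60 and 4.43 to 25.3, 29 and 24.4 CPM (2.50 ± 0.29, adjusted p = 1.9e-06). The days were fully apart for each. Of 19 tested genes of formative and primed pluripotency, 8 rose (42.1%, against 23.4% of all tested genes), 4 fell (21.1%, against 23.8%) and 7 did not pass, with a median of 0.62, and GC-adjusted 11 rose and 1 fell. The methyltransferase gene Dnmt3a rose by 1.01 ± 0.21 and the RNA-binding gene Lin28b by 1.71 ± 0.23. Id3 fell from 699.7, 715 and 690.0 to 181, 139 and 46.3 CPM (-2.52 ± 0.33). The day 3 mean was the highest of the 5 days in 12 of the 19, against 24% of all tested genes and 64.4% of the genes that rose. Otx2 then fell by 2.60 from day 3 to day 5. Otx2 and Lef1 overlap annotated antisense or model genes. Fgf5, the classical marker of the primed epiblast, had 6 and 7 counts over the 3 libraries of each day and was too low to test.

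Naive and general pluripotency genes held members that rose and members that fell. Sox2 (chromosome 3, 34650405 to 34652461, within the transcript Sox2ot) stood at 51.7, 43.9 and 46.6 CPM on day 1 and 117, 156 and 277 CPM on day 3 (1.95 ± 0.32, adjusted p = 8.25e-05). Fgf4, which epiblast cells secrete, rose from 25, 21 and 18.4 to 68, 63 and 97 CPM (1.82 ± 0.25). Nanog fell from 244, 311 and 379 to 162, 165 and 138 CPM (-1.01 ± 0.22, adjusted p = 0.00101), with all day 3 libraries lower. Of 22 naive genes, 7 rose (31.8%) and 4 fell (18.2%), near the 23.4% and 23.8% of all tested genes, and 9 rose and 4 fell GC-adjusted. Gbx2 (1.99 ± 0.40), Nr5a2 (1.26 ± 0.25) and Klf4 (1.33 ± 0.30) were among the risen. The median of the list, 0.10 against 0.03 over all tested genes, was 0.34 GC-adjusted and, with scaling by total counts, -0.16 against -0.228 over all genes. Tfcp2l1, a core naive factor, gave 106, 135 and 130.2 CPM and 106, 126 and 131 CPM (-0.03 ± 0.19, adjusted p = 0.906), and Prdm14 8.12, 8.96 and 8.31 CPM and 4.24, 5.75 and 12.8 CPM.

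Of 13 general pluripotency genes, 7 rose (53.8%, against 23.4% of all tested genes) and 3 fell (23.1%, against 23.8%). GC-adjusted, 8 rose and 3 fell. Zfp281, which promotes the passage from naive to primed cells, rose by 1.79 ± 0.30 and the RNA-binding gene L1td1 by 1.20 ± 0.19. Utf1, a chromatin factor of pluripotent cells, went from 341, 257 and 230.3 to 13.7, 12.4 and 4.89 CPM (-4.71 ± 0.36, adjusted p = 2.88e-08). Pou5f1 went from 51, 31.8 and 32.7 to 3.90, 4.08 and 3.02 CPM (-3.37 ± 0.33). Every day 3 library was below every day 1 library in both, and both fell after GC adjustment. Pou5f1 overlaps Gm19553, so its counts, and with them its level, are uncertain.

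**Figure D3:**
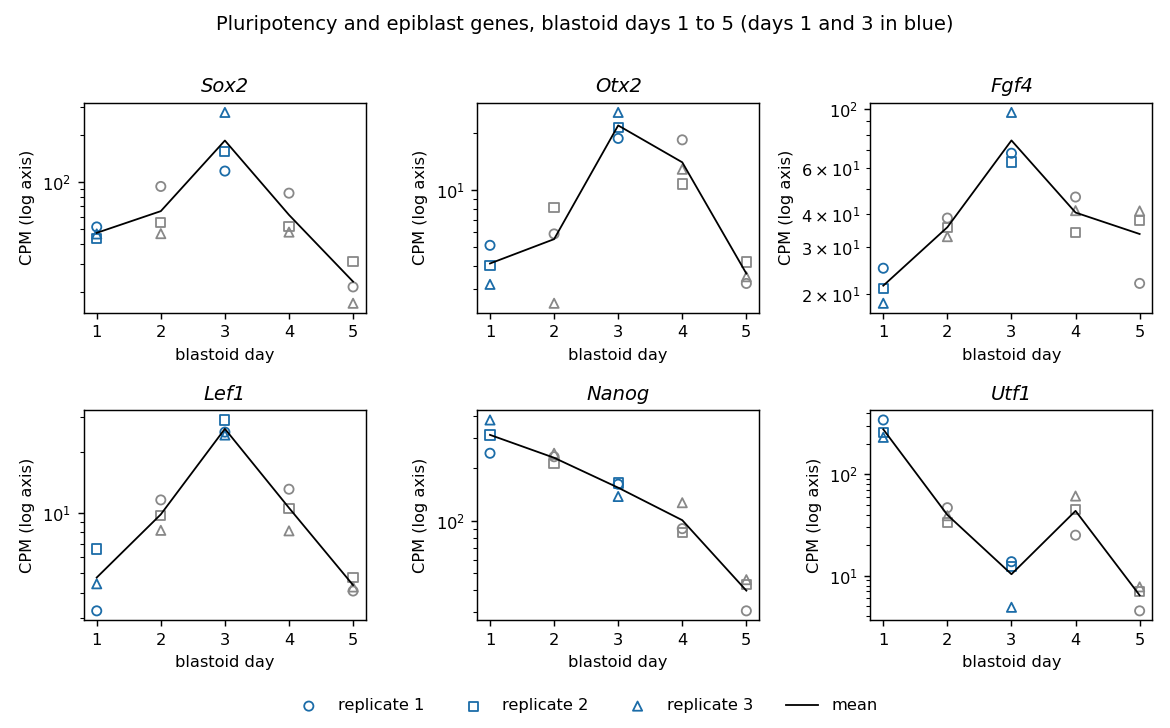
CPM (log axis) of 6 pluripotency and epiblast genes in each of the 15 blastoid libraries by day of culture, with a symbol per replicate, days 1 and 3 in blue, and a line through the daily means. Sox2, Otx2, Fgf4 and Lef1 have their highest means on day 3, while Nanog and Utf1 are lower on day 3 than on day 1.

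FGF signalling and feedback genes rose more often than they fell. GC-adjusted, 10 of 15 rose and none fell, against 20.1% and 17.5% of all genes. Without adjustment, 7 rose (46.7%, against 23.4% of all tested genes) and 1 fell (6.67%, against 23.8%). Besides Fgf4, these were Spry2, a feedback inhibitor, from 21.7, 20.5 and 19.8 to 39.3, 50.5 and 111 CPM (1.69 ± 0.35), the ETS factor gene Etv5 from 43.5, 52.8 and 51.5 to 101, 102 and 114 CPM (1.10 ± 0.20) and the ERK phosphatase gene Dusp6 (0.82 ± 0.22), with Spred1, Spred2 and Etv1. In each named gene the days did not overlap. Etv4 went the other way, at 28.7, 30.4 and 15.4 against 9.66, 7.26 and 8.14 CPM (-1.57 ± 0.35), and its fold change was -0.15 after GC adjustment (adjusted p = 0.726). Wnt genes were divided, 7 of 22 rising (31.8%) and 8 falling (36.4%), and GC-adjusted 9 rising and 3 falling. Among the falls were Tcf7l1 (-2.16) and Cdx1 (-2.16), neither of which passed GC-adjusted. The receptor gene Fzd7 rose from 5.00, 4.48 and 4.71 to 21.7, 20.1 and 41.9 CPM (2.54 ± 0.31). T (brachyury), a Wnt target and the first gene of the primitive streak, stood at 1.37, 0.472 and 2.49 CPM on day 1 and at 6.10, 7.56 and 6.98 CPM on day 3 (2.17 ± 0.50, adjusted p = 0.00162), and at 0.666 ± 0.167 CPM on day 5. Of the BMP list, 5 of 18 rose (27.8%) and 6 fell (33.3%), against 23.4% and 23.8% of all tested genes, and 2 rose and 5 fell GC-adjusted. The falls held the target genes Id1, Id2, Id3 and Msx2 and the ligand gene Bmp4. Without replicate 3 of day 3, 2 rose, and without replicate 1 of day 1, 3 rose. Id1 went from 274, 256 and 185 to 62.9, 64.6 and 25.1 CPM (-2.22 ± 0.28) and Bmp4 from 58.6, 40.8 and 54 to 17.6, 18 and 13.3 CPM (-1.65 ± 0.30), with no overlap of the days.

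Among primitive endoderm genes, Gata6 was at 1.75, 4.01 and 2.63 CPM on day 1 and 4.41, 2.57 and 3.95 CPM on day 3 (adjusted p = 0.449), and GC-adjusted it rose by 1.40 (adjusted p = 0.0155). Pdgfra was at 15.2, 17.7 and 3.60 and 6.44, 5.90 and 13.7 CPM (adjusted p = 0.377), with a fold change of -0.98 without replicate 3 of day 1, which passed. Gata4 had 13 and 8 counts and Sox17 17 and 9 counts over the 3 libraries of each day, too low to test. Of 20 tested members, 5 fell (25%, against 23.8% of all tested genes) and 2 rose (10%, against 23.4%). GC-adjusted, 3 fell and 6 rose, and without replicate 3 of day 1, 8 fell. The falls included Apoe (-3.40 ± 0.40) and Sparc (-2.09 ± 0.30), which fibroblasts express as well. Of the gastrulation list only 4 of 15 members could be tested, and of the neural list 4 of 12. In each list 1 rose (25%) and 1 fell (25%), near the shares of all tested genes. For gastrulation these were T and Cdx1. GC-adjusted, 2 rose and none fell in the gastrulation list, and 1 rose and 1 fell in the neural list.

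Genes of the p53 response fell more often than they rose. Trp53 itself (chromosome 11, 69580359 to 69591873) went from 369.8, 333 and 298 to 101, 71.2 and 21.9 CPM (-2.36 ± 0.38, adjusted p = 5.58e-05), and its target Cdkn1a, the inhibitor of cyclin-dependent kinases, from 192, 207 and 167 to 62.2, 53.7 and 15.6 CPM (-2.09 ± 0.33). Replicate 3 of day 3 was the lowest library in both. Mdm2 at 197, 218 and 208 against 161, 163 and 195 CPM (adjusted p = 0.289) and Ccng1 at 332, 332 and 344 against 328, 369.5 and 521 CPM (adjusted p = 0.312) did not pass. Of 32 genes of the list, 14 fell (43.8%, against 23.8% of all tested genes), 7 rose and 11 did not pass, and 9 fell and 5 rose GC-adjusted. Zmat3 was among those that rose (1.53 ± 0.25). Cdkn1a overlaps AC167363.2. Among G1 regulators, Ccnd3 fell from 111, 113 and 55.8 to 5.26, 5.44 and 3.49 CPM (-4.27 ± 0.35) and Ccnd1 from 125, 92.7 and 81.4 to 24.9, 27.2 and 20.9 CPM (-2.03 ± 0.26).

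Immediate early genes, which respond within minutes to growth factors and stress, were lower in 13 of 20 cases (65%) and higher in 1 (5%). All tested genes gave 23.8% and 23.4%. GC-adjusted, only 5 were lower and 3 higher, against 17.5% and 20.1% of all genes. Fos went from 15.4, 20.5 and 23.3 to 1.70, 2.72 and 5.12 CPM (-2.67 ± 0.34, adjusted p = 5.59e-06) and Ier3 from 60.2, 59 and 32.7 to 4.92, 3.93 and 7.68 CPM (-3.22 ± 0.35), and both also fell GC-adjusted. Jun (-1.73) and Junb (-2.80) fell only without adjustment, and Egr1, at 21.1, 25.5 and 23.7 and 20.3, 19.4 and 39.5 CPM, did not pass (adjusted p = 0.694) but rose GC-adjusted (1.42, adjusted p = 0.0053).

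The lysosome was among the lists with the most falls, with a median of -1.06. Of 33 genes of the proton pump, cathepsins and lysosomal membrane, 21 fell (63.6%) and 1 rose (3.03%). All tested genes gave 23.8% and 23.4%. GC-adjusted, 21 fell as well, but 16 of these were shared: 5 calls, Ctsd and Tfeb among them, were lost and 5 others gained. Many lysosomal genes are targets of the TFEB family of factors, which bind the CLEAR motif, a form of the E-box. Which members of this list are targets was not tested. The letters GTCACGTG were searched on both strands in the 250 bases upstream of each start site of the RefSeq promoter table (GRCm38.p6). They occurred in 607 of 32851 promoters (1.85%). Of the 33 list members 24 had an entry in that table, which is under the 80% set for a share over a list, so such a check is void here and single members are described. The members that held the letters were Ctsd, Ctsa, Lamp1, Atp6v0b, Gla and Mcoln1. Each of these fell. Of 18 members with an entry but without the letters, 8 fell, Ctsz and Psap among them. For the reason above no comparison of these counts is made, and the part of the motif was not tested. Ctsd (-1.42) did not pass GC-adjusted (-0.28, adjusted p = 0.454), and Mcoln1 did not pass without replicate 2 of day 1 (-0.89). Of the 10363 tested genes with an entry, 413 held the letters and 103 of these fell (24.9%). The 23.8% of all tested genes that fell includes genes without an entry, so it is not the same set. The upstream 250 bases are shown, with the match in capitals, for the 3 of these members with the smallest adjusted p. The match in Lamp1 reads on the opposite strand.
Ctsa, chr2:164833523-164833772, plus strand: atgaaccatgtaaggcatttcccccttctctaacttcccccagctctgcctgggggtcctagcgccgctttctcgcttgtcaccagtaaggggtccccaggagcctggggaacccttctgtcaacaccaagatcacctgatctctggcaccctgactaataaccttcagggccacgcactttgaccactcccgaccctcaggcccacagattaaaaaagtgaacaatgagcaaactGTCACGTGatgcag
Atp6v0b, chr4:117887330-117887579, minus strand: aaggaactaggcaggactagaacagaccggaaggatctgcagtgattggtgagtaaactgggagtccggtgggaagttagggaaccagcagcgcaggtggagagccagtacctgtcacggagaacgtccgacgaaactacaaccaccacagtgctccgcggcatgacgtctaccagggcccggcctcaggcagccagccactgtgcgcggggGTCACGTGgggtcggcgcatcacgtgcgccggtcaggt
Lamp1, chr8:13158911-13159160, plus strand: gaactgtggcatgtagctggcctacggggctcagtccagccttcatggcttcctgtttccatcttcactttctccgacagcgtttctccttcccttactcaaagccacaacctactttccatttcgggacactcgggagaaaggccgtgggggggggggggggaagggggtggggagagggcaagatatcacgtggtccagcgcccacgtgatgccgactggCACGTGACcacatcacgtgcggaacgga

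The 3 matches begin 14, 38 and 28 bases before the start site. Ctsa, the protective protein cathepsin A, stood at 134, 147 and 66.3 CPM on day 1 and 11.7, 10.1 and 16.5 CPM on day 3 (-3.19 ± 0.35, adjusted p = 1.07e-06). The pump subunit gene Atp6v0b went from 112, 152 and 84.8 to 30.9, 20.3 and 23 CPM (-2.23 ± 0.25) and the membrane glycoprotein gene Lamp1 from 328, 321 and 151 to 91.7, 83.2 and 65.8 CPM (-1.73 ± 0.27). In all 3 the days were fully apart and day 1 replicate 3 was the lowest of day 1. Of genes without the letters, Ctsz fell by 2.61 ± 0.35 and the saposin precursor gene Psap fell by 2.14 ± 0.34. Tfeb itself was low, at 5.12, 4.01 and 2.63 CPM on day 1 and 0.848, 0.151 and 0.931 CPM on day 3 (-2.64 ± 0.65, adjusted p = 0.00252), and did not pass GC-adjusted (-0.80, adjusted p = 0.333). Atp6v1a, a catalytic subunit of the pump, was the member that rose (1.08 ± 0.26). Proteasome subunits also fell more often than they rose, with 16 of 37 lower (43.2%) and 3 higher (8.11%), and 15 and 2 GC-adjusted. All tested genes gave 23.8% lower and 23.4% higher. The number higher was 6 without replicate 3 of day 3 and 1 without any other single library except replicate 3 of day 1. The largest of these falls was Psmd3 (-2.57 ± 0.33).

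Ribosomal protein genes were mostly higher. Of 89 for the cytosolic ribosome, 49 rose (55.1%, against 23.4% of all tested genes) and 10 fell (11.2%, against 23.8%), with a median of 0.89. GC-adjusted, 59 rose and 2 fell. Rpl39, a small protein of the large subunit, rose by 2.12 ± 0.33 and Rps15a by 2.09 ± 0.31, while Rpl13 fell by 1.42 ± 0.27 and Rpl3 stood at 1312, 1338 and 1326 and 1266, 1133 and 750.5 CPM (adjusted p = 0.3). Without replicate 3 of day 3, in which the summed share of these genes was lowest, 57 rose and 7 fell. Many have processed pseudogenes of near-identical sequence, which makes single values uncertain. Mitochondrial ribosomal proteins went the other way, with 11 of 77 higher (14.3%) and 28 lower (36.4%), and 8 and 20 GC-adjusted. The number higher was 17 without replicate 3 of day 3 and 7 without replicate 1 of day 1.

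All but 1 of 11 tested mitochondrially encoded mRNAs rose (90.9%, against 23.4% of all tested genes) and none fell, with a median of 1.48. These are the most GC-poor of the lists, and GC-adjusted 3 rose and 1 fell. mt-Co1, a catalytic subunit of cytochrome oxidase, stood at 4951, 6051 and 9588 CPM on day 1 and 18388, 12903 and 33747 CPM on day 3 (1.66 ± 0.34, adjusted p = 0.00056), with replicate 3 of day 3 far above the others, and mt-Nd5 at 2091, 2236 and 3565 and 3062, 2110.1 and 3467 CPM (adjusted p = 0.736), which GC-adjusted was the member that fell (-0.77, adjusted p = 0.026). Without replicate 3 of day 3, 7 rose and the median was 1.05. Nuclear genes of the respiratory chain were divided, 30 of 81 rising (37%) and 19 falling (23.5%, against 23.8% of all tested genes). GC-adjusted, 39 rose and 8 fell. Cox7c (1.98 ± 0.30), Cox6c (2.20 ± 0.28) and Uqcrb (1.79 ± 0.28), accessory subunits, were among the largest rises. Atp5d (-3.98 ± 0.24), of the ATP synthase, and Uqcrc1 (-2.90 ± 0.38), of complex III, were among the largest falls.

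Glycolytic enzymes fell in 12 of 21 cases (57.1%) and rose in 3 (14.3%), against 23.8% and 23.4% of all tested genes. GC-adjusted, 6 fell and 2 rose. Gapdh stood at 5390.0, 6557 and 5293 CPM on day 1 and 906, 639.5 and 165 CPM on day 3 (-3.33 ± 0.44, adjusted p = 7.51e-06). It was lowest in replicate 3 of day 3, and the fold change without that library was -2.89. The hexokinase gene Hk1 fell by 2.41 ± 0.38. Hk2, another hexokinase, rose from 39.7, 38.2 and 37.1 to 118, 123 and 128 CPM (1.68 ± 0.23, adjusted p = 9.89e-06), and the lactate transporter gene Slc16a1 by 1.78 ± 0.30. The lowest mean of the 5 days fell on day 3 in 14 of the 21 genes, against 23.3% of all tested genes and 62.9% of the genes that fell.

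RNA of the feeder fibroblasts may be present in aggregates made from these cultures. The 25 tested matrix genes and markers summed to 675.8 to 1132 CPM on day 1 and to 509.6 to 1267 CPM on day 3, ranges that overlap, with replicate 3 of day 3 the highest of all. In that list 6 fell (24%) and 2 rose (8%), against 23.8% and 23.4% of all tested genes, and 4 fell and 6 rose GC-adjusted. Dcn stood at 328, 347 and 245 CPM on day 1 and 103, 119 and 292 CPM on day 3 (adjusted p = 0.288), and GC-adjusted it fell (-1.93, adjusted p = 0.0263). S100a4 of the matrix list and Tagln of the contractile list had no count on either day. Contractile and caveola genes summed to 445 to 645.9 CPM on day 1 and 219.4 to 284.5 CPM on day 3. That sum was 714.5 to 747.1 CPM on day 5, when the matrix genes summed to 291.2 to 325.4 CPM. Of the 10 contractile and caveola genes, 7 fell (70%), Tpm2 (-2.46 ± 0.31) and Cav1 (-2.63 ± 0.48) among them, and none rose. GC-adjusted, 7 fell and 1 rose (Cavin1, 1.32). Of 11 feeder chemokines and cytokines 5 fell (45.5%) and 1 rose (9.09%), with the same counts GC-adjusted. Ccl2 went from 751, 737 and 544 to 161, 157 and 305 CPM (-1.71 ± 0.37). The part of feeder RNA in the falls of epithelial, p53 or lysosomal genes was not tested.

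The list of cleavage-stage genes, which the study's title concerns, held no rise, and 4 of 25 fell (Usp17le, Usp17lb, Arg2 and Pramel7), which is 16% against 23.8% of all tested genes. GC-adjusted 3 fell, and Usp17lb did not pass (-1.49, adjusted p = 0.0671). These counts rested on single libraries. Without replicate 3 of day 1, 1 fell and 3 rose, without replicate 2 of day 1, 10 fell, and without replicate 2 of day 3, 2 fell. Zscan4c stood at 26.6, 2.36 and 58.7 CPM on day 1 and 16.6, 12.7 and 20.5 CPM on day 3 (adjusted p = 0.332), so the day 1 libraries enclose the day 3 libraries. Its fold change of -0.85 ± 0.69 was -1.40 without replicate 2 of day 1 and 0.09 without replicate 3 of day 1. Zscan4 and Usp17l genes have near-identical copies, and reads may have been split among them. Of 14 parts of the SF3B complex and the U2 particle, 5 fell (35.7%, against 23.8% of all tested genes) and 2 rose (14.3%, against 23.4%). These falls were 3 without replicate 1 of day 1 or without replicate 3 of day 3. GC-adjusted, 2 fell and 2 rose, near the shares of all genes (17.5% and 20.1%). Sf3b4 fell from 128, 141 and 113 to 10.9, 13.6 and 2.56 CPM (-3.78 ± 0.40, adjusted p = 6.96e-07). Sf3b1, whose product PlaB contacts, stood at 580.1, 527 and 687 and 726, 687 and 515 CPM (adjusted p = 0.706). By number of introns, the median fold change of protein-coding genes was -0.0409 for 707 genes with none, -0.151 for 1732 genes with 1 to 2, -0.225 for 5379 genes with 3 to 9 and 0.0532 for 4726 genes with 10 or more, and GC-adjusted these medians ran from -0.173 to 0.157.

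**Figure D4:**
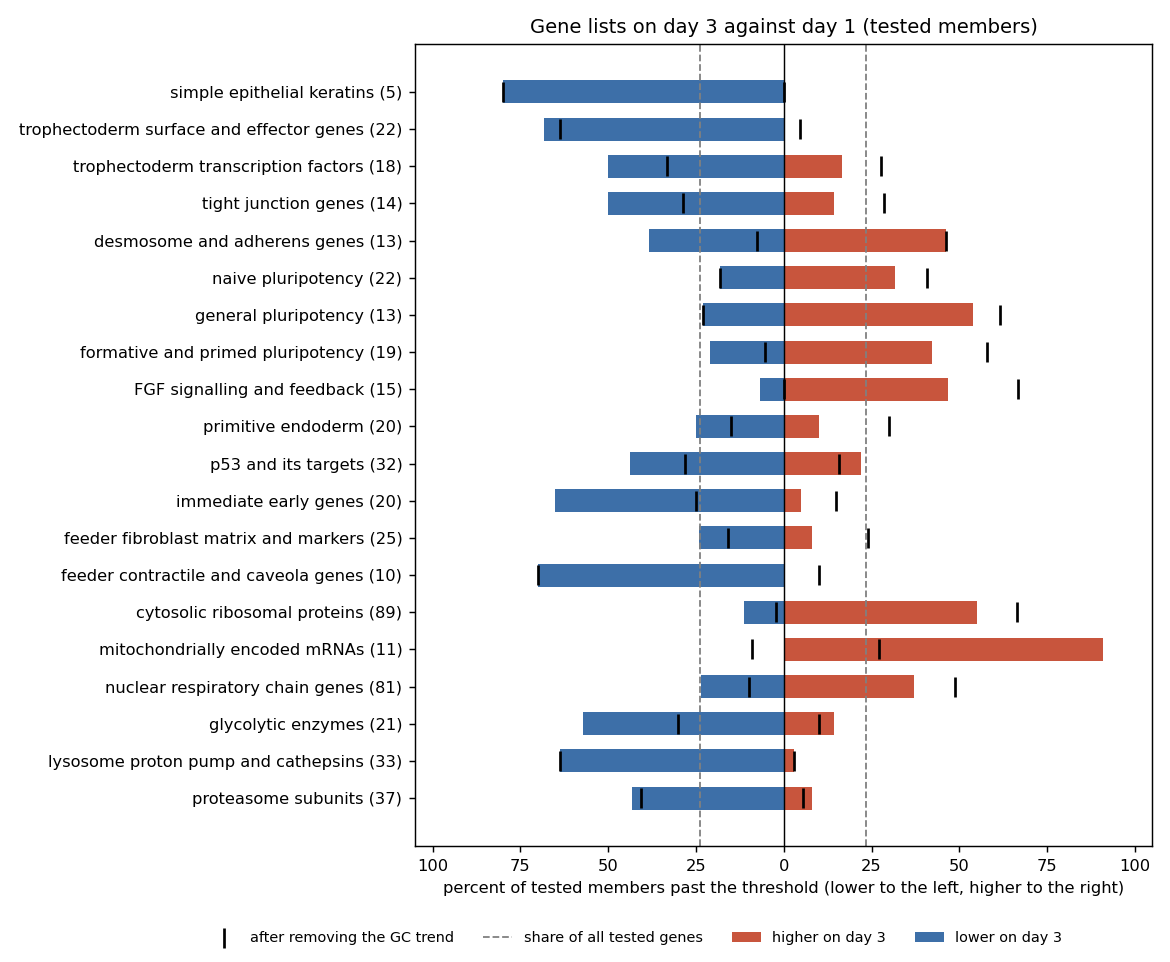
Percent of tested members of 20 gene lists that were higher (red, to the right) or lower (blue, to the left) on day 3 than on day 1, with the number tested in brackets, ticks for the same share after the GC trend was removed, and dashed lines at the share of all tested genes (23.4% higher, 23.8% lower). Lists whose ticks move far from the end of the bar, such as immediate early genes (13 of 20 lower, then 5), depend on the GC trend. Equal totals do not mean equal members: 21 of 33 lysosome genes were lower in each fit and 16 in both.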

How the data were processed

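Polyadenylated RNA of TT2 blastoids was measured with Smart-seq2 libraries (whole-transcript cDNA, PCR, no molecular identifiers). The authors deposited raw counts of reads per gene symbol. The submitters' processing notes name mm10, STAR 2.7.10b for alignment and HTSeq 0.13.5 for counting. Which annotation and strand setting served for counting is not given in the sources used here. The deposited table holds 54352 symbols. Exactly 1 gene of GENCODE M21 matched 53663 of them and gave coordinates (GRCm38), GC content and introns. In the labels the description of each sample names the other of the 2 tables, so columns were matched to samples by title.

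All 15 blastoid libraries were fitted together with day as the factor, so that they share 1 estimate of the spread (biological coefficient of variation 0.258), and day 3 was compared with day 1. edgeR 4.0.16 (R 4.3.3) was used with filterByExpr (minimum count 10, minimum total 15), TMM scaling, robust dispersions and the quasi-likelihood F-test, with Benjamini-Hochberg adjustment over 15121 genes and a threshold of 0.05. For the GC-adjusted fit, each library's lowess trend (span 0.3) of log2 level relative to the gene's mean against GC content of the longest transcript entered as an offset, for the 15016 genes (99.3%) with a value. Fitted fold changes of genes near 0 counts depend on the prior count. On simulated data (14580 genes), 75.8% of 4-fold and 22% of 2-fold changes were recovered, with 2 false calls. That simulation changed only 99 genes by 4-fold and 100 by 2-fold, and held no GC trend and no outlying library. Its rates describe the fit under those settings and not the error of the calls given here.

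Genes were named by rule: the 12 largest log2 fold changes per direction among genes past the threshold with and without GC adjustment, a mean of 10 CPM or more on the higher day and no overlap of libraries; up to 4 members of each of 45 lists by adjusted p; and a fixed set of genes. Others, among them Dcn, Etv4, Jun, Junb, Plac1, Psap, Rpl3, Spry2, Tead4, Tfeb, Zfp281 and mt-Nd5, were chosen after their values were seen. Members and lists were chosen with earlier results of these data known. Replicate numbers did not pair the days (correlations of deviations -0.00833, 0.0711 and 0.0145). The 2D table was not used here.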

Additional observations from a re-analysis of the deposited data

How the results depend on the processing

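The counts of genes higher and lower on day 3 (3545 and 3600) stayed within 1.5 times under every setting run: RLE size factors, total counts only, no filter on low counts, only the 6 libraries compared, a block for the replicate number, removal of the GC trend with and without that block, leaving out mitochondrially encoded genes, DESeq2 1.42.0, limma-voom 3.58.1, thinning to the smallest total and a log2 fold change of at least 1. Leaving out 1 library at a time gave 2548 to 3559 higher and 3072 to 3712 lower genes. The replicate block gave 3223 and 3386. Same-numbered libraries did not deviate together, so the numbers are taken as names only, and the block ended 1 named call, that of Usp17lb. Of 115 named genes that passed, which do not include Tcf7l1 and Cdx1, 100 kept call and direction in every setting. Removal of the GC trend ended 9 of the other calls. Of the 15 named genes that did not pass, the following changed sign under some settings. With the GC trend removed, and then with the block as well, the fold change was -0.41 and -0.40 for Ccng1, 0.11 and 0.091 for Prdm14, 0.15 and 0.17 for Rpl3, -0.39 and -0.40 for Sf3b1, 0.80 and 0.81 for Tead4, and -0.77 and -0.78 for mt-Nd5. With total counts only it was -0.066 for Egr1, -0.16 for Sf3b1 and -0.11 for mt-Nd5, and with thinning 0.0107 for Tfcp2l1. Without single libraries it ran from -0.23 to 0.35 for Egr1, -0.75 to 0.10 for Prdm14, -0.0082 to 0.25 for Sf3b1, -0.089 to 0.49 for Tfap2c, -0.17 to 0.048 for Tfcp2l1, -1.40 to 0.086 for Zscan4c and -0.047 to 0.38 for mt-Nd5. Mdm2, which did not pass, passed with total counts only (-0.51, adjusted p = 0.038). The cause of these changes was not tested. Depth limits the comparison for low genes: 85 list members had too few counts to test.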

Other observations

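Among lists not described above, genes of G2 and M phase gave 9 rises and 11 falls of 33 (23.4% and 23.8% of all tested genes), and 1 rise and 12 falls GC-adjusted. DNA replication genes gave 3 rises and 9 falls of 34, and 4 and 7 GC-adjusted. Of 20 aminoacyl-tRNA synthetases, 2 rose and 10 fell, and 1 and 6 GC-adjusted. Genes of the ATF4 and unfolded protein response gave 3 rises and 14 falls of 30, and 4 and 5 GC-adjusted. Nodal pathway genes gave 1 rise and 5 falls of 13, and 5 and 3 GC-adjusted. Cholesterol synthesis (5 rises and 7 falls of 23), imprinted genes (6 and 6 of 22) and apoptosis regulators (5 and 5 of 24) were near even. The list of MHC class I and the interferon response, which does not hold H2-T23, gave no rise and 4 falls of 16, and 2 and 3 GC-adjusted. The median fold change of these lists lay between -0.78 for the last and -0.07 for imprinted genes, against 0.03 over all tested genes. GC-adjusted, it was 0.25 for apoptosis regulators, 0.07 for the ATF4 list and 0.04 for Nodal genes, and below 0 for the others. Lists left out here include the DNA methylation machinery (0.40), hypoxia response (0.33), SR proteins and CLK kinases (0.24) and chaperones (0.16). YAP and TEAD targets (-0.13) and apical polarity genes (-0.18) are also left out.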
